A study of Mus musculus with 2 samples.

Results

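The mouse Ifi200 genes, also called PYHIN or HIN-200 genes, lie side by side on chromosome 1, and 8 of them were examined here: Ifi203, Ifi204, Ifi205, Mnda, Mndal, Pyhin1, Pydc3 and Pydc4. They were chosen by symbol from a table of 46095 genes, with their values in this comparison already known, so their differences between the libraries are descriptions and carry no test. Bone marrow cells of C57BL/6 mice were grown into macrophages for 5 days in DMEM with 100 ng/ml M-CSF (macrophage colony-stimulating factor), and total RNA was sequenced. The KO library came from LyzM-Cre; Tipe1f/f mice, in which Cre recombinase made from the Lyz2 locus removes the floxed gene in myeloid cells, and its genotype label reads TIPE1-/-. The WT library is labelled wild type, while the design text describes Tipe1f/f mice without Cre, so the floxed allele may be carried by both and Cre by the KO alone. There was 1 library per genotype, and the sources used here do not give the number of mice behind each.

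Proteins of this family usually carry an N-terminal pyrin domain, which binds other pyrin domains, and a C-terminal HIN domain, which binds double-stranded DNA. Interferon raises most of these genes in macrophages, where family members act as sensors of DNA in the cytosol or work in the nucleus on transcription and growth. AIM2, the best known member outside the 8, binds DNA and recruits the adaptor ASC to form an inflammasome, and IFI204 is known to signal through STING. The genes arose by repeated duplication, and several are near copies of each other.

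The libraries held 11782664 (WT) and 15815956 (KO) counted reads, and values are given as CPM, the read count scaled to a common library size with a TMM factor for library composition. The deleted gene, Tnfaip8l1, had 21 reads in WT and 3 in KO, and the exons removed were not given in the sources used here. Macrophage identity genes were abundant in both, with Csf1r, the M-CSF receptor gene, at 2646 CPM in WT and 2414 CPM in KO. Stromal markers summed to 2012 CPM in WT and 180 CPM in KO. Of 15 tested 14 were lower, and Tagln was at 0 in both. Monocyte markers summed to 1331 and 563 CPM, with 5 of 10 tested lower and 5 not. The largest of these were Fn1 (471 and 133 CPM) and F13a1 (413 and 139 CPM). By the rule given below, 7.23% of all tested genes, those averaging 1 CPM or more, were lower. The part of stromal cells and monocytes in the results below was not tested. In such bulk RNA, fewer cells of a type and less RNA per cell cannot be told apart. A gene is called higher or lower here when its CPM ratio reached 1.5-fold and the exact 95% counting interval, given in parentheses, excluded 1. Intervals cover counting error only, since there are no replicates, and PCR copies of a molecule can make them too narrow even for that.

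In the table used, some members bear older names. RefSeq for GRCm38.p6 lists Pydc3 as Ifi208, Pydc4 as Ifi213, Pyhin1 as Ifi209 and Mnda as Ifi211. All 8 are protein-coding, and together they span 465 kb of chromosome 1, from 173566280 to 174031755. Along the chromosome the order is Pydc4 (173566280 to 173599348), Pyhin1 (173630859 to 173647928), Pydc3 (173673628 to 173698393), Ifi204 (173747293 to 173767069), Mndal (173857215 to 173880382), Mnda (173896339 to 173913087), Ifi203 (173920400 to 173942866) and Ifi205 (174011998 to 174031755).

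Because interferon acts on many of its targets through an interferon-stimulated response element (ISRE), the promoters were compared first. RefSeq promoter records, 250 bases before to 50 after a start, were found for 7 of the 8 members, all but Ifi204. The ISRE core was searched on both strands as GAAA, any 2 bases and GAAA again, and 6 of those 7 members held it, against 3.99% of the 27025 genes with a record. Within the 200 bases before the start it was 6 of 7 again, against 2.65% of genes. The 70 bases around the core are given 5′ to 3′ on the gene's strand, with the core or its aligned position in capitals, for the members and for AI607873, a further family gene that RefSeq calls Ifi207. They place the gene that was low in the KO library, Pydc3, beside its copies.
Pydc3: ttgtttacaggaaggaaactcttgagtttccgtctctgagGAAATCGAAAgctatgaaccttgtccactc
Pydc4: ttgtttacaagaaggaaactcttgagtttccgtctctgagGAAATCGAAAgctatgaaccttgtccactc
Ifi203: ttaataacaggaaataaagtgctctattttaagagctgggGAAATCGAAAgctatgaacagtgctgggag
Mndal: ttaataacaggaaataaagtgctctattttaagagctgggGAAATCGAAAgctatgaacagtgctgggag
Mnda: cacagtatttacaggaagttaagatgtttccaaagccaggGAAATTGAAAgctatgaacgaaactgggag
Ifi205: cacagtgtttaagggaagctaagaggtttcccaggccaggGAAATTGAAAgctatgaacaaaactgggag
AI607873: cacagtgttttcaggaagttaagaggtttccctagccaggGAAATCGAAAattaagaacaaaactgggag
Pyhin1: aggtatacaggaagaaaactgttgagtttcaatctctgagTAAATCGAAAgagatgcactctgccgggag

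These windows lie in GRCm38.p6 at chr1:173673567-173673636 (plus strand) for Pydc3 and, on the minus strand, at chr1:173599316-173599385 for Pydc4, chr1:173942498-173942567 for Ifi203, chr1:173880194-173880263 for Mndal, chr1:173913054-173913123 for Mnda, chr1:174031860-174031929 for Ifi205 and chr1:173741821-173741890 for AI607873. The Pyhin1 window, at chr1:173630740-173630809 on the plus strand, has no match to the searched letters. It was placed by alignment to the promoter of Ifi214, a PYHIN gene in the annotation, from whose core it differs by G1T, counted from the first base of the core. Mnda and Ifi205 shared 1 core and differed from the core of Ifi203 by C6T, counted the same way. The printed cores of Pydc3, Pydc4, Ifi203, Mndal and AI607873 were identical. Not printed are further matches on the opposite strand with other middle bases, 1 before another start of Mndal and 1 after the start of Ifi205. The first base of the core stood 58 bases before the start in Pydc3, 73 in Pydc4, 35 in Ifi203, 36 in Mndal, 37 in Mnda and 134 in Ifi205. These distances hold for the start whose record held the printed core, and some gene spans given above reach past that start. Ifi203 has a further start on record, and the promoter record of that start held no match. A match is a description of the letters and says nothing of use by a factor.

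Whole promoters gave similar pairs among the members. Over the 250 bases before the start, Pydc3 and Pydc4 aligned over 235 bases and were identical at 233 of them, with no gap. Mndal and Ifi203 were identical at 233 of 239 aligned bases and Mnda and Ifi205 at 141 of 151. The longest alignment of Mnda was with AI607873, identical at 216 of 246 aligned bases. The promoter of Ifi206, another copy near Pydc4, was identical to that of Pydc3 at 231 of 232 aligned bases. No symbol of the table matched Ifi206, so it has no reads to report. Among other motifs searched on both strands, GAGGAA, the core of ETS factors such as PU.1, overlapped the 5′ end of the ISRE core in Pydc3 and Pydc4 and was in 2 of the 7 members, against 31.3% of genes. TTCNNNGAA, a STAT dimer site, was in 0 of 7 against 9.55%, and GGG, any 2 bases and TTTCC, a form of the NF-kB site, was in 0 of 7 against 1.89%. TATAAA was in 4 of 7 against 15.7%, and within the 200 bases before the start in 2 of 7 against 11.7%.

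Of the promoter pairs, Pydc3 and Pydc4 were also each other's closest copy in coding sequence, while Mnda was closest to Ifi204. Mndal was closest to Ifi205 over the aligned bases, but to Mnda by identical bases as a share of the shorter sequence (87.0% against 81.9%). The coding sequences of Pydc3 (1764 bases) and Pydc4 (1758 bases), from the longest coding transcript in GENCODE M21, were 96.9% identical over the aligned bases. Ifi204 and Mnda were 96.2% identical over 1266 aligned bases, Ifi205 and Mnda 94.7% over 1212, and Mnda and Mndal 87.4% over 1269. Mndal was 88.0% identical to Ifi205 over 1129 aligned bases and 81.3% to Ifi203 over 1274. Since the sources used here give neither read length nor counting rule, the share of each gene's exact 50-base words also found in another gene's transcripts was taken as a measure of how far a short read can be placed. It was 72.8% for Mnda, whose words recur mostly in Ifi205 (44.7%) and Ifi204, and 33.7% for Pyhin1, nearly all of it in Ifi214. For Pydc3 it was 20.9%, most of it in Pydc4 (18.1%). The other 5 members lay between that and 12.4% (Ifi203), with Ifi205 at 18.6% and Pydc4 at 15.6%. With 100-base words it was 56.9% for Mnda, 16.9% for Pyhin1 and 5.92% for Pydc3. Values of these genes are uncertain to the extent that reads of copies could be shared out in other ways, which touches Mnda most.

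**Figure D1:**
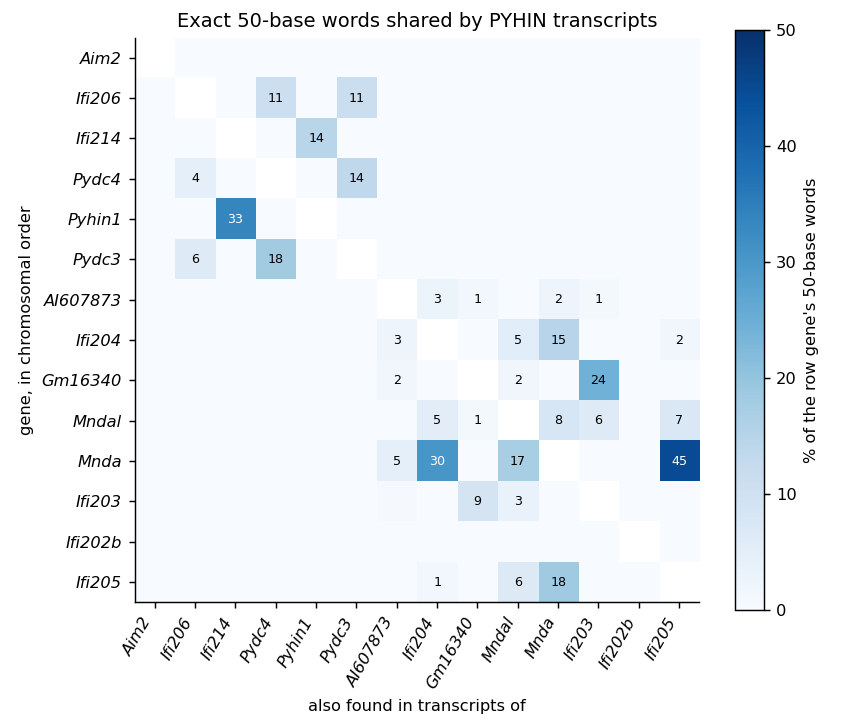
Share of each gene's distinct 50-base transcript words (rows, in chromosomal order) that also occur in transcripts of another PYHIN gene (columns), as a percentage of the row gene's words. The darkest cell is Mnda in Ifi205 at 44.7%, and Pydc3 shares 18.1% of its words with Pydc4.

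Of the 8 members, 6 were higher in the KO library, 1 was lower and 1 was neither. Of the 12495 genes that averaged 1 CPM or more, called the tested genes here, 6.47% were higher and 7.23% lower by the same rule, 13.7% in either direction. With a 2-fold limit 1 member was higher and 1 lower, against 2.59% and 4.78% of all tested genes, 7.36% in either direction. Nothing is read from the members' count, because this contrast was used to choose them. The median log2 ratio of the 8, after adding 0.5 CPM to both values, was 0.73, against 0.01 over all tested genes. All 8 passed the filter on the mean, Pydc3 only through the WT library.

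Pydc3, named for a pyrin domain, was the member that was lower. It had 84 reads in WT and 4 in KO, or 6.95 and 0.259 CPM. That is 26.8-fold lower (10.1 to 101) in the KO library. At the WT rate, 107 reads would have been counted at the KO library's depth. On the log2 scale with 0.5 CPM added its ratio was -3.30, and 33 of the 12495 tested genes had a lower one.

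Its closest copy, Pydc4, went the other way. Pydc4 had 921 reads in WT and 2122 in KO, 76.3 and 138 CPM, a ratio of 1.80 (1.67 to 1.95). The intervals of both genes lie on opposite sides of 1 and do not overlap. Pydc3 made up 8.36% (exact binomial interval 6.72 to 10.2) of the reads of both copies in WT and 0.188% (0.0513 to 0.481) in KO. Summed, the copies had a ratio of 1.66 (1.54 to 1.79), close to that of Pydc4 alone. In the KO library Pydc3 was 103 reads short of the WT rate, and Pydc4 had 945 reads more than the WT rate gives. Whether reads of Pydc3 were counted for Pydc4 was not tested.

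Markers of some other cell types were lower in the KO library, as Pydc3 was. Stromal markers had a median log2 ratio of -3.37, with Col1a1, a collagen chain, 12.1-fold lower (11.3 to 13) and Acta2, smooth muscle actin, 17.9-fold lower (13.2 to 24.8). Of 7 tested B cell markers 5 were lower. By the same rule, 7.23% of all tested genes were lower. Cd79a, a chain of the B cell receptor, had 40 reads in WT and 10 in KO, and the lineage factor Ebf1 had 26 and 2. The B cell list summed to 175 CPM in WT and 178 CPM in KO, nearly all of it from Blnk and Cd22. Of 11 tested neutrophil markers 4 were lower and none higher. The part of these cells in the Pydc3 reads was not tested.

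**Figure D2:**
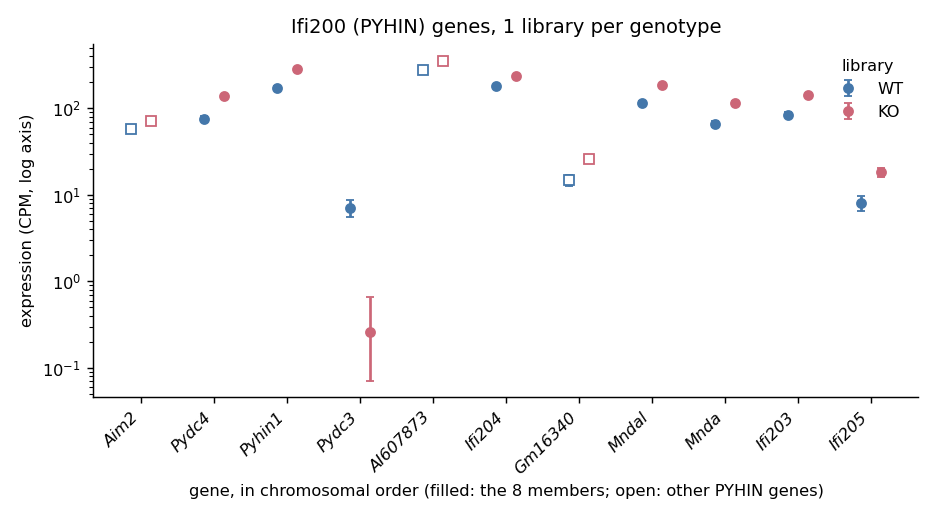
Expression of PYHIN genes with reads and a RefSeq position in CPM (log axis), in chromosomal order, for the WT library (blue) and the KO library (red), with exact 95% Poisson intervals as bars; filled circles are the 8 members and open squares other family genes. Pydc3 stands at 6.95 CPM in WT and 0.259 CPM in KO, while the KO value is above the WT value for every other gene plotted.

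The 6 higher members had ratios between 1.59 and 2.29. Ifi205 had the largest ratio at the lowest level of these, with 96 reads in WT and 281 in KO, 7.95 and 18.2 CPM, a ratio of 2.29 (1.81 to 2.92). Mnda, named after the human myeloid nuclear differentiation antigen, had 797 and 1774 reads, 66.0 and 115 CPM, a ratio of 1.74 (1.60 to 1.90). As a share of the reads of all 8 genes, Ifi205 stood at 1.12% (0.907 to 1.36) in WT and 1.63% (1.45 to 1.83) in KO, and Mnda at 9.28% (8.68 to 9.92) and 10.3% (9.86 to 10.8). The difference between their ratios was not tested. Counted together, which removes any error in sharing reads between them, they gave 1.80 (1.66 to 1.95).

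Ifi203, a nuclear HIN protein gene, had 1017 reads in WT and 2173 in KO, 84.2 and 141 CPM, a ratio of 1.67 (1.55 to 1.80). Mndal, the gene whose promoter is nearly that of Ifi203, had 1407 and 2866 reads, 116 and 186 CPM, a ratio of 1.59 (1.5 to 1.7). GENCODE annotates 37 exonic bases common to both. Pyhin1, related to human IFIX, had 2088 and 4380 reads, 173 and 284 CPM, a ratio of 1.64 (1.56 to 1.73). These 3 genes had overlapping intervals. A relation between the ratios and the ISRE core was not tested.

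Ifi204, the DNA sensor gene known as p204, was the member in neither class. Its 2176 reads in WT and 3605 in KO are 180 and 234 CPM, a ratio of 1.30 (1.23 to 1.37). Its upper bound lies under the lower bound of each of the 6 higher members. By these intervals, which cover counting error only, its ratio was above 1 and under those of the 6 higher members. Ifi204 and Mnda are close copies, and the part of shared reads in this difference was not tested. As a share of all reads of the 8 genes, Ifi204 stood at 25.3% (24.4 to 26.3) in WT and 21.0% (20.3 to 21.6) in KO, and Pyhin1 at 24.3% (23.4 to 25.2) and 25.5% (24.8 to 26.1).

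**Figure D3:**
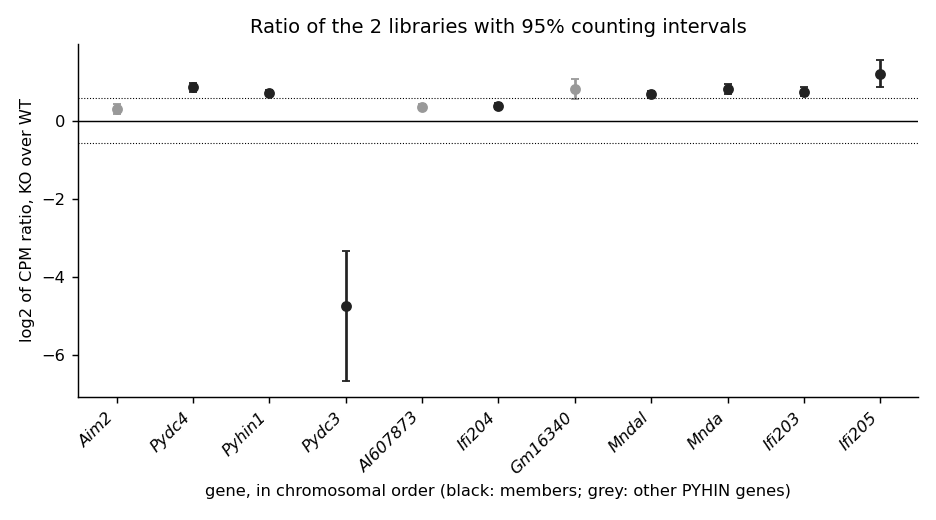
Log2 of the CPM ratio of KO over WT for each PYHIN gene with reads and a RefSeq position, in chromosomal order, with 95% counting intervals; black marks the 8 members, grey the other family genes, and dotted lines the 1.5-fold limits. Ifi204, AI607873 and Aim2 lie between 0 and the upper limit, and Pydc3 is the only point below 0.

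Members also differed in level. Per kb of the longest coding transcript, on the CPM scale, the order from the highest was Ifi204, Mndal, Pyhin1, Mnda, Pydc4, Ifi203, Ifi205 and Pydc3 in both libraries. Ifi204 stood at 78.5 CPM per kb (Poisson interval 75.2 to 81.8) in WT and 102 (98.5 to 105) in KO. Ifi205 stood at 4.93 (3.99 to 6.02) and 11.3 (10 to 12.7). Pydc4 and Ifi203, neighbours in the order, were nearly level in the WT library, at 27.7 (26.0 to 29.6) and 27.6 (25.9 to 29.3). In the KO library Pydc4 was the higher, at 50 (47.9 to 52.2) against 46.1 (44.2 to 48.1), with intervals that barely overlap. Pydc3 was at 2.33 (1.86 to 2.88) and 0.0867 (0.0236 to 0.222) CPM per kb. In the WT library too, then, Pydc3 was well below its copy.

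Summed over the 8 genes, the family had 8586 reads in WT and 17205 in KO, 711 and 1115 CPM, a ratio of 1.57 (1.53 to 1.61). This sum does not depend on how reads were split among the 8, and Pydc3 adds little to it: without that gene the ratio was 1.58 (1.54 to 1.63). In an alternative chosen after the data were seen, members were summed where identical bases made up at least 80% of the shorter coding sequence, which left 4 units. By that measure Ifi203 and Mndal, at 64.2%, stayed apart. Pydc3 with Pydc4 gave 1.66, Ifi203 alone 1.67 and Pyhin1 alone 1.64, all called higher. Ifi204, Ifi205, Mnda and Mndal together gave 1.49 (1.44 to 1.55), just under the limit, and no unit was lower.

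Family genes outside the 8 were measured in the same table. Aim2 had 703 and 1105 reads, 58.2 CPM in WT and 71.6 CPM in KO, a ratio of 1.23 (1.12 to 1.35). AI607873 was the family gene with the most reads, 3346 and 5431, at 277 and 352 CPM, a ratio of 1.27 (1.22 to 1.33). Both stood with Ifi204 above 1 and under 1.5. Gm16340, which RefSeq lists as the pseudogene Ifi203-ps and which shares 24.3% of its 50-base words with Ifi203, had 179 and 400 reads, a ratio of 1.75 (1.46 to 2.10). BC094916, chosen as a family gene and not matched to RefSeq by name, had 9 and 33 reads, a ratio of 2.87 (1.34 to 6.82). Ifi202b, known for its low expression in C57BL/6 mice, was listed at 0 in both libraries. A count of 0 allows up to 3 counts, 0.248 CPM in WT and 0.194 CPM in KO.

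Few other genes of the region were expressed. Of 62 genes of the table within 1 Mb of the members, 50 were not PYHIN genes, and 39 of those had no read in either library. The 4 that lie among the members had at most 1 read in a library. Of the 50, 2 were tested and both were higher in the KO library, where 6.47% of all tested genes were higher. Slamf8, a receptor of the SLAM family, had 362 and 1338 reads, a ratio of 2.89 (2.57 to 3.26). Dusp23, a phosphatase gene, had 72 and 173 reads, a ratio of 1.88 (1.42 to 2.51).

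**Figure D4:**
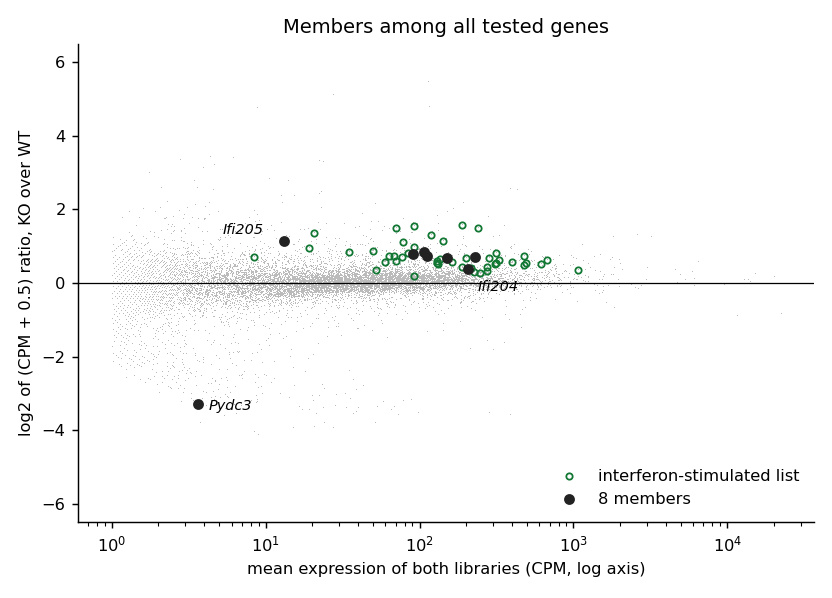
Log2 ratio of KO over WT with 0.5 CPM added, against the mean of both libraries in CPM (log axis), for the 12495 tested genes (grey points), the interferon-stimulated list (open green circles) and the 8 members (black). Pydc3 lies at -3.30, and the other 7 members lie from 0.37 to 1.15, in the range of the interferon-stimulated genes, which many other tested genes share.

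Interferon-responsive genes outside the family were counted by the same rule. Of 45 tested interferon-stimulated genes, 26 were higher, 0 lower and 19 neither in the KO library, where 6.47% of all tested genes were higher, and the median log2 ratio was 0.64 (range 0.19 to 1.58), against 0.01 over all tested genes. The largest ratios were those of Rsad2, the antiviral enzyme viperin, at 95 CPM in WT and 285 CPM in KO (ratio 3, 2.81 to 3.20), its neighbour Cmpk2 (2.93), Mx1 (2.87) and Ifit2 (2.81). All 8 members except Pydc3 lay in this list's range, which is wide. Its ends, Irf9 and Rsad2, ranked 3213 and 76 from the highest of the 12495 tested genes, so many other genes share it. Of 17 tested genes that respond mainly to interferon gamma, 7 were higher and 1 lower, 9 were in neither class, and the median was 0.54. Gbp2 and Gbp5, guanylate-binding proteins, and Cd274, the gene of PD-L1, had ratios of 2.12, 1.98 and 1.87. Ciita, the class II transactivator, was 2.03-fold lower (1.48 to 2.79). The lists were written with earlier results of these data known and are no independent evidence of direction.

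Few reads came from interferon ligand genes, while the receptor genes Ifnar1 and Ifnar2 were expressed at similar levels in both libraries. Of 21 interferon ligand genes none passed the filter, and 19 had no read in either library. Ifnb1, interferon beta, had 0 reads in WT and 6 in KO, and Ifnk 0 and 1. The receptor genes stood close to 1, Ifnar1 at 265 and 279 CPM (ratio 1.05) and Ifnar2 at 173 and 158 CPM (ratio 0.914). Over all tested genes, 6.47% were higher and 7.23% lower. Of 20 tested genes of the receptor and JAK-STAT list, 3 were higher and 0 lower, with a median of 0.13. The higher ones were Usp18, an ISG15 protease that limits receptor signalling, at 1.68, the interferon regulatory factor Irf7 at 1.65, and the phosphatase gene Ptpn6 at 1.53. Usp18 and Irf7 are also in the interferon-stimulated list. Stat2 and Irf9, which code for proteins that bind the ISRE as part of a complex, were in neither class, with ratios of 1.44 (1.38 to 1.5) and 1.14 (1.05 to 1.23).

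Only transcript levels were measured for the pathways that PYHIN sensors feed. For all tested genes the shares were 6.47% higher and 7.23% lower, with a median log2 ratio of 0.01. Of 16 tested genes of DNA sensing through STING, 2 were higher and 0 lower, with a median of 0.14. Ikbke, a kinase that acts on IRF3, was at 262 CPM in WT and 508 CPM in KO (ratio 1.94, 1.86 to 2.02), and the ubiquitin ligase gene Trim56 had a ratio of 1.60. Tmem173, which codes for STING, was at 41.6 and 33.2 CPM (ratio 0.798, 0.705 to 0.905), and Mb21d1, the DNA sensor cGAS, at 20 and 22.5 CPM (ratio 1.12, 0.950 to 1.33). Of 19 inflammasome genes, 1 was higher and 1 lower, with a median of 0.13. These were Il1b, an inflammasome product, at 12.3 and 21.7 CPM (ratio 1.77), and the sensor gene Nlrp1b, 1.64-fold lower (1.44 to 1.88). Pycard, the ASC adaptor of AIM2, stood at 34.0 and 36.3 CPM (ratio 1.07), Casp1 at a ratio of 1.32 and Il18 at 1.02.

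**Figure D5:**
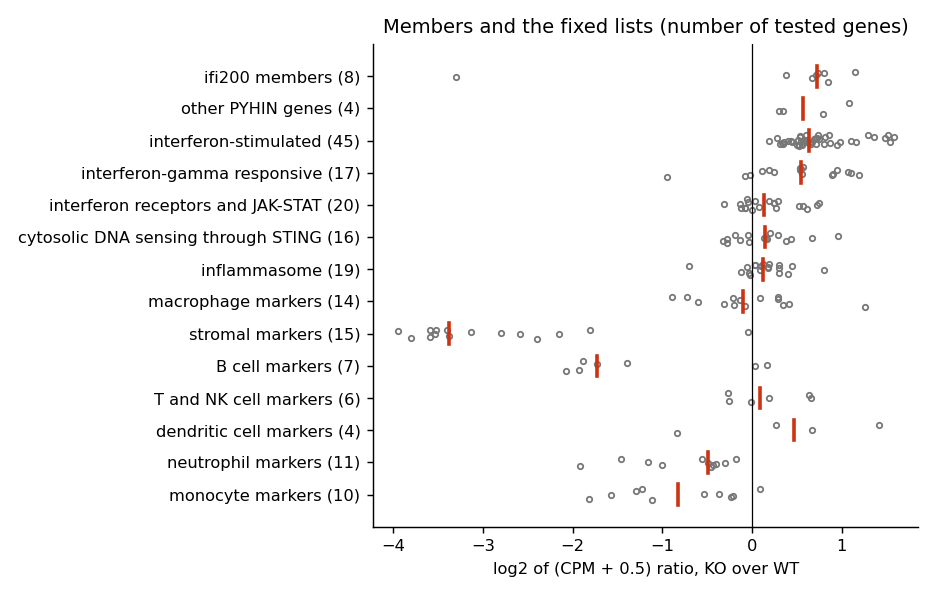
Log2 ratio of KO over WT with 0.5 CPM added for every tested gene (grey circles) of the members and of each list, with the list median as a red bar and the number of tested genes in parentheses; the interferon ligands, with no tested gene, are left out. The members' median is 0.73 and that of the interferon-stimulated list 0.64, while the STING and inflammasome lists lie at 0.14 and 0.13 and the stromal list at -3.37.

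Cell types that could add PYHIN reads to the culture were checked by their markers. The shares over all tested genes were 6.47% higher and 7.23% lower. Macrophage markers had a median of -0.10 over 14 tested genes, with 1 higher (Adgre1, which codes for F4/80, 1064 and 2554 CPM) and 3 lower, among them Lyz2 at 14958 and 8028 CPM. Lyz2 is also the locus of Cre, so an effect of the Cre allele on it cannot be told apart. T and NK cell markers summed to 27.3 CPM in WT and 38.4 CPM in KO, of which Cd4 made up 17.6 and 27.6 CPM. Of 6 tested T and NK cell markers 2 were higher, Cd4 at 1.57 (1.33 to 1.86) and Cd8a at 1.74 (1.04 to 2.98), and 4 were in neither class. Cd3e, a defining T cell gene, had 20 reads in each library, a ratio of 0.783 (0.400 to 1.53). Dendritic cell markers had 2 higher and 1 lower of 4 tested. The higher ones were Itgax, which macrophages also express, at 2.68 and Bst2, which is in the interferon-stimulated list too, at 1.59, while Siglech, a defining gene of plasmacytoid cells, had 1 read in WT and 0 in KO. The part of these cells in the members' values was not tested.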

How the data were processed

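The deposited table, with a column for each library, holds raw read counts by gene symbol. The submitters' processing notes name HISAT2 and GRCm38, while the counting program, annotation, strand setting and read length were not given in the sources used here. Library sizes were scaled with TMM (edgeR 4.0.16, R 4.3.3), or with DESeq2 1.42.0 size factors or total counts as alternatives. The fold limit was applied to genes averaging 1 CPM or more. Ratios carry exact Clopper-Pearson 95% intervals of the split of reads (scipy 1.17.1), and log2 ratios have 0.5 CPM added. With 1 library per genotype no p-value was computed. The interval and the call rule were tested on data simulated with counting error only. That simulation does not cover scaling by TMM, PCR copies or reads shared between gene copies. Members and lists were chosen with earlier results of these data known. Named genes are all members and other family genes, fixed pathway genes, up to 4 genes per pathway list and 3 per marker list, ranked by size of log2 ratio among genes averaging 5 CPM or more, and up to 6 locus genes. Of these, 1 gene is not reported here. Csf1r, Cd79a, Ebf1, Cd3e, Cd8a, Siglech, Tagln and Ifnk were named after their values were seen. Promoters came from RefSeq GRCm38.p6 and transcripts from GENCODE M21, aligned with Biopython 1.88. Of the table's symbols, 41483 matched RefSeq directly and 1111 by a unique synonym.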

Additional observations from a re-analysis of the deposited data

How the results depend on the processing

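Scaling by total counts, by DESeq2 size factors or by TMM without stromal markers left 6 members higher and 1 lower. Over all tested genes, total counts gave 651 higher and 1061 lower, and DESeq2 size factors 830 and 885, in place of 808 and 904. Each scaling shifts all ratios by a common factor, so the ratios of single genes are no separate checks. With total counts, Ifi204 went from 1.30 to 1.23. With total counts the summed ratio was 1.49, and with the other PYHIN genes added it was 1.48. With a limit of 2-fold, 1 member (Ifi205) was higher. With the interval bound itself required to reach 1.5-fold, 5 members were higher and 1 lower. With the filter at 10 CPM, 0 members were lower, since Pydc3 fell under the filter. With close copies summed by coding sequence, chosen after the data were seen, 3 units were higher and 0 lower, from fewer units. The planned sum by protein identity was not run, because no protein sequences were used here. The median of the B cell list was 0.10 with the filter at 10 CPM, where its low genes drop out. That filter also left 1 neutrophil marker lower in place of 4, and 4 interferon-gamma genes higher and 0 lower in place of 7 and 1. With total counts 0 T and NK cell markers were higher, in place of 2. No paired analysis was possible because no genotype had a second library. Depth limits Pydc3 most: with 4 reads in the KO library its ratio is known only within its wide interval.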
